A study of Bos taurus with 4 samples.

Results

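DLK1, also called preadipocyte factor 1, was 1 gene of the 36373 UniGene clusters with counted reads, and it was taken by its cluster, Bt.5223. A UniGene cluster is a group of transcript sequences with a single sequence standing for it, and 4803 of the clusters could be given a gene symbol. Subcutaneous adipose tissue of Qinchuan cattle was sampled at 200 to 250 days of gestation (fetal library, ATFB) and, by the labels, at 18 to 24 months in bulls (ATAB), in heifers (ATAH) and in steers, the castrated males (ATAS). Tissue from 5 animals per group was pooled into 1 library, so replicates were lacking for every comparison, and each interval given here covers counting error only. The 4 libraries held 15.3 to 16.1 M counted reads. The labels gave no sex for the fetuses. XIST, the RNA of the inactive X chromosome, reached 12637 reads in ATFB, 9978 in ATAH, 71 in ATAB and 98 in ATAS, and the Y-linked EIF2S3Y had 119 reads in ATAB, 111 in ATAS and 0 in ATFB and ATAH.

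DLK1 encodes a transmembrane protein with epidermal growth factor-like repeats, related to the Delta and Jagged ligands of Notch receptors but lacking the domain with which those ligands activate Notch. Preadipocytes, the precursors of fat cells, express it, its level falls as they mature, and its extracellular part, once shed by a protease, holds back their differentiation. The gene is imprinted, which means that its expression depends on the parent a copy came from, and for DLK1 the father's copy is expressed. It is widely expressed in fetal tissues.

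The deposited DLK1 sequence was 1340 bases long, with a coding sequence from base 156 to base 1082 that held 308 codons before its stop codon. A second deposited sequence, the unnamed expressed sequence tag Bt.65303, was identical to it over all 909 of its own bases, which were bases 1 to 909 of DLK1. Bt.65303 had no line in the count tables. The end of the DLK1 coding sequence, which includes the part for the cytoplasmic tail of the protein, is shown because the shared stretch ends there. Capitals mark bases that DLK1 did not share with any other deposited sequence at 95% identity over 100 bases, and the lower-case letters are shared.
DLK1, bases 850 to 1082: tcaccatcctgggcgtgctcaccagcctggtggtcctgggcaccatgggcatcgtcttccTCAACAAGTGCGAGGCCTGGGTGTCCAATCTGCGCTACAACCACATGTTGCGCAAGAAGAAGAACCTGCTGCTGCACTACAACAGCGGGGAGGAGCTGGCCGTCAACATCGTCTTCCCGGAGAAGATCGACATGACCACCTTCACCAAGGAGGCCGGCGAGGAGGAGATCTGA
Bt.65303, bases 850 to 909: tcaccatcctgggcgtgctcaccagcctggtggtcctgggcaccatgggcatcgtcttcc

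DLK1 was abundant in fetal fat, had few reads in the heifer and steer libraries and none in the bull library. There were 11580 DLK1 reads in ATFB, none in the bulls (ATAB), 40 in the heifers (ATAH) and 19 in the steers (ATAS). In RPKM, the reads scaled to the length of the sequence and to the counted reads of the library, this was 566 in ATFB with a 95% Poisson interval of 556 to 576. The ATAH library had 1.91 RPKM (1.37 to 2.61) and the ATAS library 0.911 RPKM (0.549 to 1.42). The count of 0 in ATAB was read as up to 3 reads, which is 0.139 RPKM, and its two-sided Poisson limit was 3.69 reads, or 0.170 RPKM. Fewer cells that express DLK1 and less DLK1 RNA per cell cannot be told apart in pooled tissue.

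**Figure D1:**
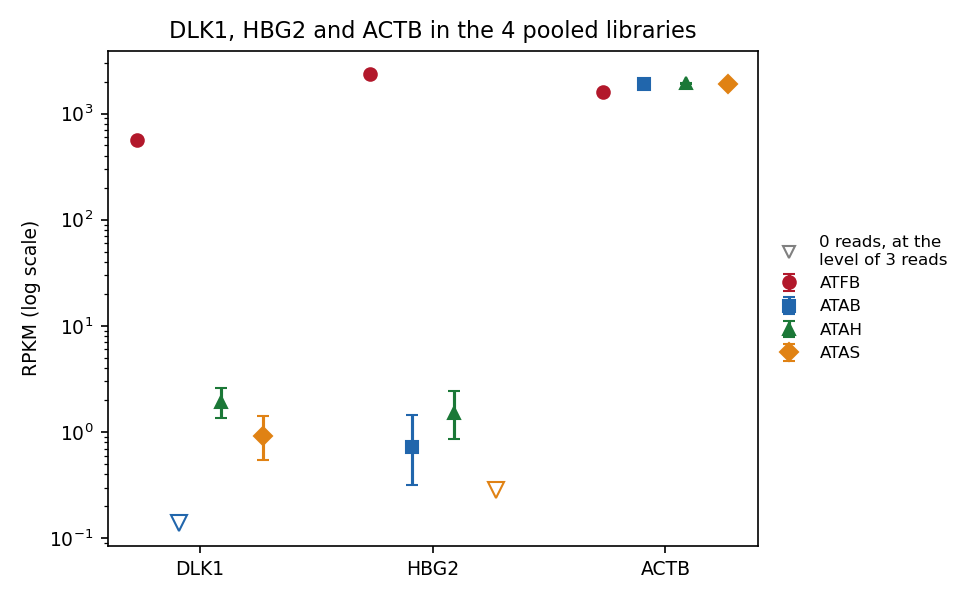
RPKM (log scale) of DLK1, HBG2 and ACTB in the pooled libraries ATFB (fetal), ATAB (bull), ATAH (heifer) and ATAS (steer), 1 library each; bars are exact 95% Poisson intervals of the read count, and open triangles mark 0 reads, drawn at the level of 3 reads. DLK1 stood at 566 RPKM in ATFB and at or below 1.91 RPKM in the adults, while ACTB lay between 1592 and 1924 RPKM in all 4 libraries.

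Because DLK1 was chosen with this pattern known, the fetal-to-adult ratios are a description without a test. The ATFB level was at least 4081-fold higher than that of ATAB, counted against 3 reads with the ATFB reads taken as exact. It was 295-fold that of ATAH (95% Clopper-Pearson interval 217 to 414) and 621-fold that of ATAS (397 to 1031). On the log2 scale these ratios were at least 12.0, with a 95% Clopper-Pearson limit of 11.7, then 8.21 (7.76 to 8.69) and 9.28 (8.63 to 10.01). Over the 3 adult libraries together there were 59 reads, and the ATFB level was 608-fold the summed adult level (471 to 799).

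The rank of DLK1 among all clusters changed with its level. In ATFB it ranked 152nd by RPKM among 31236 clusters with reads, and 20th among those with a symbol. In ATAH, 57.5% of the clusters with reads had a higher RPKM than DLK1, and in ATAS 69.4% did. ATFB held 99.5% of the RPKM of DLK1 summed over the 4 libraries, where the median of the 11651 clusters with at least 100 ATFB reads was 27.0%. Of these clusters, 4 had a larger fetal share, namely HBG2 (a fetal hemoglobin chain), ALAS2 (the first enzyme of heme synthesis in red cells), KRT13 (an epithelial keratin) and the unnamed Bt.69278. Among the 2541 clusters with at least 1000 ATFB reads, DLK1 was the only one with 0 reads in ATAB.

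Among the adult libraries the levels are likewise a description without a test, since they were known when DLK1 was chosen. Counted against 3 reads in ATAB, the level was 13.8-fold higher in ATAH and 6.57-fold higher in ATAS. The 95% Clopper-Pearson limits of the log2 ratio of ATAB over ATAH and over ATAS were -3.42 and -2.28. The ATAH level was 2.10-fold that of ATAS (1.19 to 3.84), while the Poisson intervals of these levels overlapped. In order of level the libraries stood as ATFB, ATAH, ATAS and ATAB. The adult values rest on so few reads in 1 library each that animals, pools and sex cannot be told apart.

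The adult reads were small beside the fetal count. They were 0.345% of the ATFB reads in ATAH and 0.164% in ATAS. HBG2, with more ATFB reads than DLK1 (24526), had 8, 16 and 0 reads in ATAB, ATAH and ATAS, or 0.0326%, 0.0652% and 0% of its ATFB reads. DLK1 thus had more reads than HBG2 in ATAH and ATAS and fewer in ATAB. Whether reads were carried over between libraries was not tested.

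Reads covered 57.0% of the DLK1 sequence in ATFB, 27.5% in ATAH and 24.8% in ATAS. Clusters within 20% of its length and of its read count in ATFB numbered 26. Their coverage had a median of 62.5% and a range of 27.0% to 99.7%, and 10 of them were covered less than DLK1. In ATAH the median of 225 such clusters was 59.7%, with 14 below DLK1, and in ATAS the median of 148 was 47.2%, with 9 below. Like clusters with over 50% of their bases shared were covered less, with a median of 53.1% for 3 clusters in ATFB, 43.2% for 39 in ATAH and 34.9% for 26 in ATAS. DLK1 lay above that median in ATFB and below it in ATAH and ATAS.

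**Figure D2:**
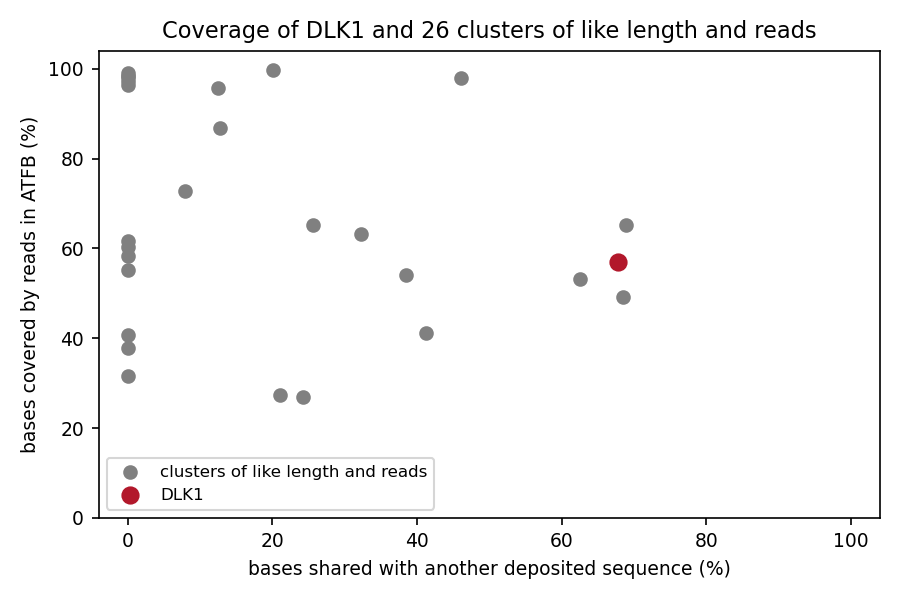
Percent of bases covered by reads in ATFB against the percent of bases shared with another deposited sequence, for DLK1 (red) and the 26 clusters of like length and read count (gray), 1 point per cluster. DLK1, with 67.8% of its bases shared and 57.0% covered, lies among clusters of similar sharing at 49.1% to 65.1% coverage, and clusters without shared bases range from 31.5% to 99.0%.

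Whether the shared bases bear on the level was not tested. Only reads that matched once were counted, and reads were 90 bases long, since 1542 of the 1544 clusters with a single ATFB read had 90 bases covered. All reads that touch any of the 431 unshared DLK1 bases could together cover at most 520 bases of the sequence (38.8%), but 764 were covered in ATFB, so bases were covered that such reads could not reach. In ATAH and ATAS, 369 and 333 bases were covered. By the study's methods reads were aligned to the cattle genome, and how reads were assigned to UniGene clusters that share bases is not given in the sources used here.

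The mature fat cell genes ran the other way. Of 20 such genes listed, 17 had a named cluster, and PPARG, FABP4 and PLIN4 were not analysed here. All 17 had reads in every library, and their summed RPKM was 1796 in ATFB against 12018 to 19681 in the adults. The reads of each cluster were compared between 2 libraries by an exact two-sided binomial test, and a cluster was called at a Benjamini-Hochberg FDR of 0.001 or less over all clusters tested and a log2 ratio of at least 1 in size. Such a test compares the libraries, not the conditions. By this rule, 17 of 17 were lower in ATFB than in ATAB, 17 of 17 than in ATAH and 13 of 17 than in ATAS. Among all clusters, 9.51% of 34096, 13.9% of 34589 and 15.5% of 34474 were called lower in ATFB in these comparisons. The 3 comparisons share the ATFB library. The median log2 ratios over the 17 genes were -2.84, -2.95 and -2.37, beside 0.15, -0.08 and -0.09 over all clusters with a ratio.

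LEP, the hormone leptin, was at 3.24 RPKM in ATFB and at 128, 118 and 74.8 RPKM in ATAB, ATAH and ATAS. ADIPOQ, the hormone adiponectin, had 261, 982, 1150 and 1498 RPKM in the same order. PLIN1, which coats the lipid droplet, had 72.7, 520, 834 and 1005 RPKM. All of these were called lower in ATFB in each comparison, and their order among the adults was not shared, since LEP was highest in ATAB and ADIPOQ and PLIN1 in ATAS. THRSP, a regulator of lipid synthesis, gave the lowest of the 17 log2 ratios against ATAB, -6.67 (-6.78 to -6.56). The others called in all 3 comparisons were LIPE and PNPLA2 (lipases of the fat store), CIDEC (lipid droplet growth), DGAT2 (the last step of triglyceride synthesis), FASN and SCD (fatty acid synthesis and desaturation), ACSL1 (fatty acid activation), AQP7 (glycerol transport) and CEBPA, a transcription factor of fat cell differentiation. The ACSL1 call against ATAS was lost when ACTB reads set the scaling (log2 ratio -0.95). CEBPA shared 51.2% of its bases with another deposited sequence. CIDEA, LPL, PCK1 and GPD1 were called against ATAB and ATAH but not against ATAS, where their log2 ratios were -0.69, -0.76, -0.84 and -0.88.

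Per length, DLK1 was above every one of these 17 genes in ATFB, where the highest was ADIPOQ at 261 RPKM. In the adult libraries it was below every one of them, the lowest being CEBPA in ATAB (54.7 RPKM) and PCK1 in ATAH and ATAS (36.9 and 26.6 RPKM). With ATFB set against the 3 adult libraries in edgeR's quasi-likelihood test, 11 of the 17 were lower in ATFB at an FDR of 0.05 and none was higher, nor at an unadjusted p under 0.05 or by DESeq2, beside 9.83% of 25584 clusters lower and 8.39% higher. In that fit ATFB was a single library, assumed to vary as the adult libraries did. CIDEA, LPL, PCK1, GPD1, ACSL1 and FASN did not pass it. Without the ATAH library the count was 7 of 17.

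**Figure D3:**
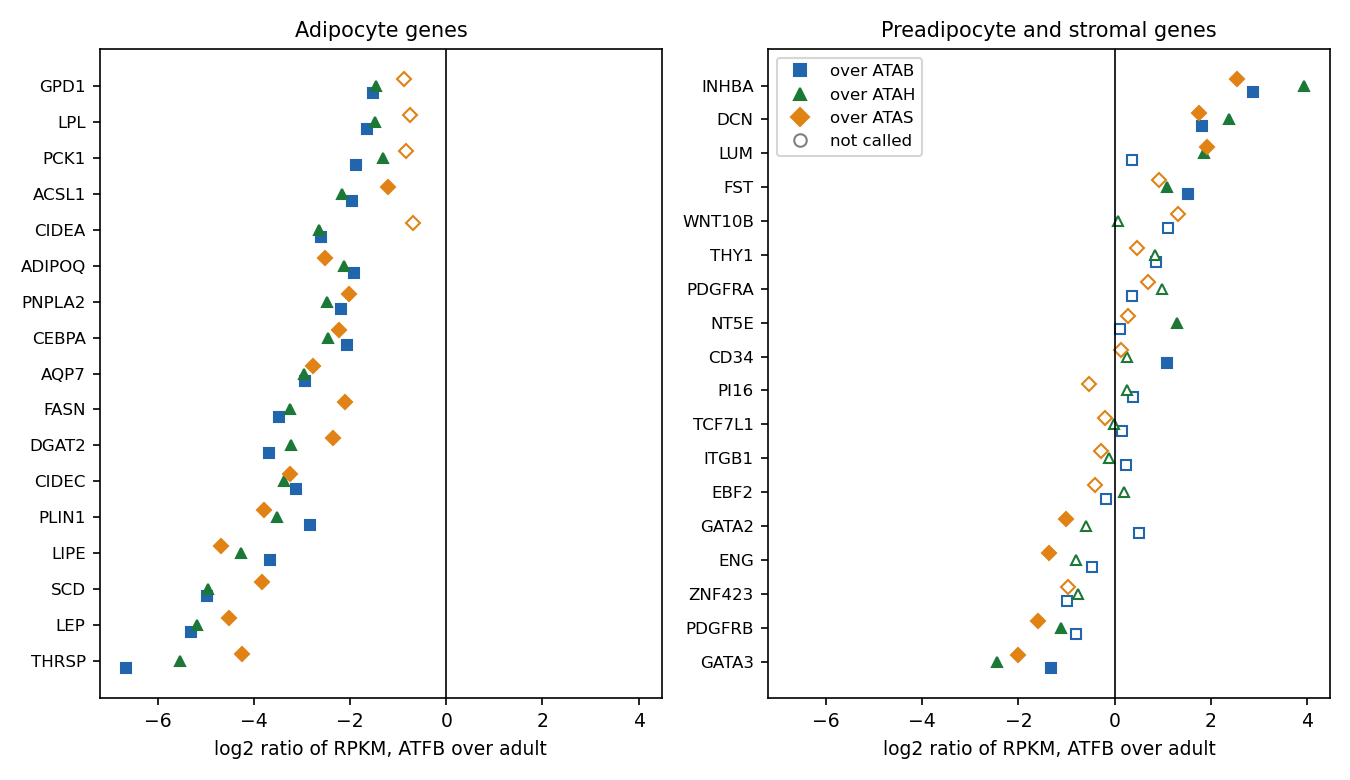
Log2 ratio of RPKM of ATFB over ATAB (squares), ATAH (triangles) and ATAS (diamonds) for 17 adipocyte genes (left) and 18 preadipocyte and stromal genes (right), 1 library per group; filled symbols were called by the binomial rule and open symbols were not. All adipocyte points lie left of 0, and the preadipocyte points lie on both sides, from INHBA at 3.95 over ATAH to GATA3 at -2.44.

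Other markers of preadipocytes and stroma did not share the DLK1 pattern as a group. Of 22 listed, 18 had a named cluster. In ATFB, 4 of 18 were called higher and 1 lower than in ATAB, 5 and 2 than in ATAH, and 3 and 4 than in ATAS. The shares of all clusters were 13.1% higher and 9.51% lower, 9.83% and 13.9%, and 10.5% and 15.5%. The median log2 ratios were 0.36, 0.22 and -0.03. INHBA and DCN were called higher in all 3 comparisons. INHBA, a subunit of activin, counted 257 reads in ATFB and 37, 17 and 45 in the bull, heifer and steer libraries. DCN, the matrix proteoglycan decorin, had 3916, 1115, 755 and 1155 RPKM, and was the only gene of the list above DLK1 in ATFB. GATA3, a transcription factor that holds back fat cell differentiation, was called lower in all 3 comparisons, with 22 reads against 58, 122 and 90.

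PDGFRA, a receptor on fat cell precursors, had 67.6 RPKM in ATFB and 34.0 to 52.7 in the adults, and was called in no comparison. CD34 and THY1, surface proteins of stromal precursors, had log2 ratios of 0.14 to 1.09 and 0.47 to 0.85, with CD34 called higher against ATAB alone. PDGFRB, found on pericytes, was called lower in ATFB against ATAH and ATAS (-1.12 and -1.59). LUM was called higher against ATAH and ATAS, FST against ATAB and ATAH, and NT5E against ATAH. LUM shared 71.0% of its bases with another sequence. ENG and GATA2 were called lower against ATAS. ITGB1, PI16, EBF2, TCF7L1, WNT10B and ZNF423 were called in no comparison. By edgeR, INHBA, DCN and FST were higher and GATA3 lower at an FDR of 0.05, beside 8.39% of all clusters higher and 9.83% lower. The list counts of 3 and 1 became 1 and 0 without the ATAH library and 5 and 2 without the ATAB library. The counts over all clusters also fell without ATAH and rose without ATAB. Under TMM and DESeq2 scaling PDGFRA was called higher against ATAH (log2 ratios 1.09 and 1.13), CD34 lost its call against ATAB, GATA2 lost its call against ATAS, FST was called higher against ATAS as well (1.05 and 1.09), and ZNF423 was called lower against ATAB (-1.16 and -1.13). With ACTB reads as the scaling, GATA3 lost its call against ATAB and PDGFRB its call against ATAH, the PDGFRA, FST and GATA2 changes were the same, and WNT10B against ATAS and THY1 against ATAB and ATAH were called higher. The PDGFRB call against ATAH was also lost with DESeq2 size factors.

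The genes through which DLK1 is known to act on preadipocytes were described in the same way. ADAM17, the protease that sheds the DLK1 ectodomain, had no named cluster and was not analysed here, nor were SOX9 and CEBPB. Of 8 genes measured, 1 was called higher and 2 lower in ATFB than in ATAB, 1 and 1 than in ATAH, and 1 and 2 than in ATAS. Over all clusters, 13.1% were called higher and 9.51% lower than in ATAB, 9.83% and 13.9% than in ATAH, and 10.5% and 15.5% than in ATAS, and nothing particular to 8 genes is read from these counts. FN1, the fibronectin that binds DLK1, was at 175 RPKM in ATFB and at 361, 158 and 244 in the bull, heifer and steer libraries. It was called lower in ATFB than in ATAB alone (log2 ratio -1.05), a call that was lost when ACTB reads set the scaling. ITGA5 and ITGB1 form an integrin that binds fibronectin. ITGA5 had 105 RPKM in ATFB against 50.8 to 68.0 in the adults and was called higher against ATAS (1.05), and ITGB1 had 102.9 against 87.6 to 125. MAP2K1 and MAPK3, kinases of the MEK and ERK route, were called in none. CEBPD, an early factor of fat cell differentiation, had 447 RPKM in ATFB and 96.4 to 278 in the adults and was called higher against ATAB (2.21) and ATAH (1.05). ADAM10, a related protease, had 11.6 RPKM against 17.4 to 27.1 and was called lower against ATAS (-1.22). With ACTB reads as the scaling, the ADAM10 call was lost and ITGA5 was also called higher against ATAB (1.08).

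The measured ligands and receptors of the Notch family all lay below DLK1 in ATFB. DLK2, the closest relative of DLK1, counted 8, 8, 6 and 18 reads in ATFB, ATAB, ATAH and ATAS, or 0.269 to 0.810 RPKM, and was called in no comparison. DLL3 had 2 reads in ATAH and 0 in the others. The Notch ligand JAG1 was the highest of the measured ligands and receptors in ATFB at 21.1 RPKM, far below DLK1, and had 28.3 to 34.4 RPKM in the adults. DLL4, a ligand of blood vessel lining, and NOTCH4, a receptor of the same cells, were called lower in ATFB against ATAH (log2 ratios -1.62 and -2.07) and ATAS (-1.94 and -2.14), and NOTCH4 also against ATAB (-1.05). JAG2 was called lower against ATAH (-1.10) and ATAS (-1.19). Of the 6 measured ligands and receptors, none was called higher in ATFB, and 1, 3 and 3 were called lower than in ATAB, ATAH and ATAS, beside 13.1%, 9.83% and 10.5% of all clusters higher and 9.51%, 13.9% and 15.5% lower. With ACTB reads as the scaling, both JAG2 calls and the NOTCH4 call against ATAB were lost, and with DESeq2 size factors the JAG2 call against ATAH. NOTCH1, NOTCH2, NOTCH3 and DLL1 were not analysed here. A cluster described as delta-like 1-like (Bt.15606) had 17, 40, 79 and 155 reads in ATFB, ATAB, ATAH and ATAS and shared no stretch with DLK1.

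Of 16 genes that process Notch or answer it, 2 were called higher and 1 lower in ATFB than in ATAB, 3 and 3 than in ATAH, and 2 and 6 than in ATAS, beside 13.1% and 9.51%, 9.83% and 13.9%, and 10.5% and 15.5% of all clusters. The median log2 ratios were 0.07, -0.32 and -0.45. RFNG, which modifies Notch with sugars, had 90.02 RPKM in ATFB against 94.2 to 106. NCSTN, a subunit of gamma-secretase, was called lower against ATAH and ATAS (-1.11 in each). RBPJ, the DNA-binding partner of Notch, was called higher against ATAH (1.06). NUMB, which restrains Notch, and MAML2, a coactivator, were called lower against ATAS (-1.46 and -1.05). The NCSTN and MAML2 calls against ATAS were lost under TMM, DESeq2 and ACTB scaling, and the NCSTN call against ATAH under DESeq2 and ACTB scaling. Under TMM and DESeq2 scaling NCSTN was called lower against ATAB (-1.09 and -1.06), and with ACTB scaling RBPJ was called higher against ATAB (1.20). The genes called in all 3 comparisons were DTX3 and HEY2, both higher in ATFB. HEY1 and HEYL, targets of Notch like HEY2, were called lower in ATFB against ATAH (-1.91 and -1.39) and ATAS (-1.996 and -1.48). These 4 were singled out after their values were seen. HES1, a classical Notch target singled out in the same way, had 451 reads in ATFB against 384, 490 and 686 and was called in none.

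The neighbours of DLK1 on the chromosome included genes with the same direction of difference. DLK1 lies in an imprinted domain in which the protein-coding DLK1, RTL1 and DIO3 are expressed from the father's copy and the noncoding MEG3 and MEG8 from the mother's copy. RefSeq lists them on the ARS-UCD2.0 assembly in the order WARS1, WDR25, BEGAIN, DLK1, MEG3, RTL1, MEG8 and DIO3. MEG3 had 11837 reads in ATFB, close to the 11580 of DLK1, and 688, 337 and 539 in the bull, heifer and steer libraries. Its level was 397 RPKM in ATFB and 11.1 to 21.8 RPKM in the adults, with log2 ratios of 4.19 (4.07 to 4.30), 5.16 (5.01 to 5.32) and 4.48 (4.36 to 4.61). MEG3 thus kept 2.85% to 5.81% of its ATFB reads in the adults, where DLK1 kept 0% to 0.345%. ATAB was the adult library with the most MEG3 reads and the one without a DLK1 read.

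RTL1, a gene derived from a retrotransposon, had 66 reads in ATFB and 5, 10 and 8 in ATAB, ATAH and ATAS. Its reads cannot be told from those of its antisense transcript, since the libraries did not mark the strand. MEG8 had 50 reads in ATFB, a single one in ATAB and none in ATAH and ATAS, and a second MEG8 cluster had 10 reads in ATFB and 0 in the adults. BEGAIN had 92 reads in ATFB and 26, 25 and 30 in the adults. MEG3, RTL1, MEG8 and BEGAIN were the 4 of the 8 measured genes of the region, YY1 included, that were called higher in ATFB in all 3 comparisons, and all 4 were higher at an FDR of 0.05 in edgeR, or 3 without the ATAH library. Of all clusters, 13.1%, 9.83% and 10.5% were called higher against ATAB, ATAH and ATAS, and 8.39% were higher in edgeR. DIO3, which inactivates thyroid hormone, had 10, 16, 16 and 11 reads and was called in none, nor were WDR25 and YY1. WARS1, of whose bases 78.6% stand in another deposited sequence, was called lower in ATFB than in ATAS (log2 ratio -1.18), a call that was lost when ACTB reads set the scaling, under which WDR25 was called higher against ATAS (1.09).

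**Figure D4:**
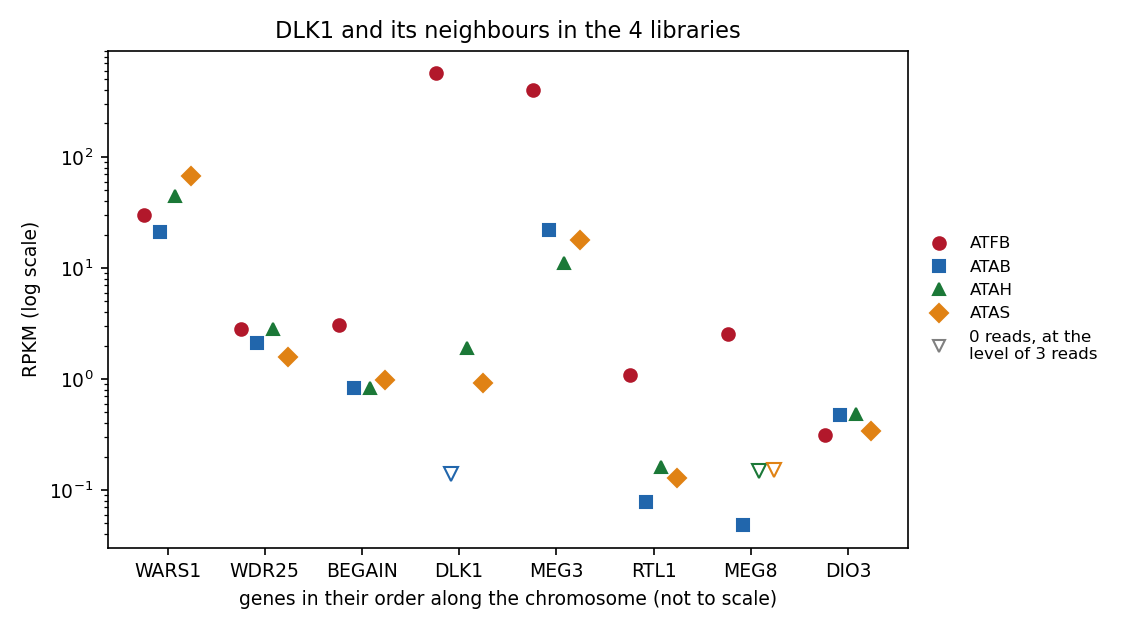
RPKM (log scale) of DLK1 and 7 neighbouring genes, in their order along the chromosome and not to scale, in ATFB (circles), ATAB (squares), ATAH (triangles) and ATAS (diamonds), 1 library each; open triangles mark 0 reads, drawn at the level of 3 reads. BEGAIN, DLK1, MEG3, RTL1 and MEG8 were highest in ATFB, with DLK1 at 566 and MEG3 at 397 RPKM. WDR25 was also highest in ATFB, but close to ATAH (2.83 against 2.81 RPKM). DIO3 stayed between 0.311 and 0.488 RPKM.

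Imprinted genes elsewhere in the genome included others with high fetal levels. Of 18 measured, 9 were called higher and 1 lower in ATFB than in ATAB, 7 and 1 than in ATAH, and 7 and 1 than in ATAS, beside 13.1%, 9.83% and 10.5% of all clusters called higher and 9.51%, 13.9% and 15.5% called lower. The median log2 ratios were 0.88, 0.95 and 0.61. IGF2, a fetal growth factor, had 3062 RPKM in ATFB and 142, 236 and 306 in ATAB, ATAH and ATAS. H19, the noncoding RNA beside it, had 2814 RPKM in ATFB and 50.4 to 68.5 in the adults. GNAS, CDKN1C, NNAT and IGF2R, which also had many reads, were called in no comparison, but under TMM scaling NNAT was called higher against ATAH (1.08) and CDKN1C lower against ATAB (-1.14). With ACTB scaling CDKN1C was called higher against ATAH (1.12). Under TMM, DESeq2 and ACTB scaling 10, 10 and 12 of the 18 genes were called higher against ATAH. The median log2 ratio over all clusters in that comparison was 0.02, 0.06 and 0.19 under these scalings, against -0.08 under library totals. The shares of all clusters called under these scalings are not reported here. MEST, PEG10 and SGCE were called higher and NAP1L5 lower in all 3 comparisons, and these 4 were singled out after their values were seen. MEST kept 37 to 89 of its 3030 ATFB reads in the adults. By edgeR at an FDR of 0.05, 6 of the 18 were higher in ATFB, beside 8.39% of all clusters, and none lower, with 1 lower at an unadjusted p under 0.05 and 1 by DESeq2.

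The genes whose pattern over the 4 libraries was most like that of DLK1 were found among 2555 other clusters with a symbol and at least 100 ATFB reads. Likeness was the largest difference, in percentage points over the 4 libraries, in the share of the summed RPKM. The 10 nearest were ALAS2 (0.245), HBG2 (0.402), KRT13 (0.497), KRT15 (1.16), COL2A1 (1.22), CDH7 (1.73), KRT14 (2.10), COL11A1 (2.35), IRX6 (2.84) and IGF2BP3 (3.75). They included a hemoglobin chain and a heme enzyme, keratins of stratified epithelium and the cartilage collagens COL2A1 and COL11A1, besides the RNA-binding protein IGF2BP3. COL2A1 had 1459 reads in ATFB and 2, 14 and 10 in ATAB, ATAH and ATAS. COL11A1 had 2447 reads in ATFB and 2, 7 and 64. KRT13, with 182 reads in ATFB, had none in the adults. With all genes of at least 20 ATFB reads eligible, 6 of the 10 remained, and with a distance on log2(RPKM + 0.1), 8 did.

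**Figure D5:**
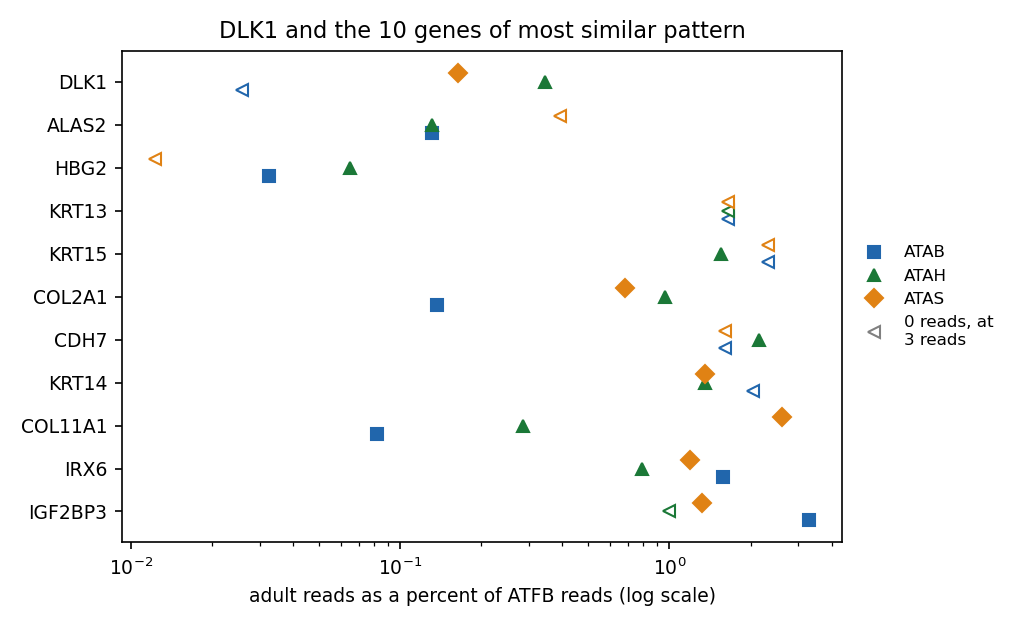
Reads in ATAB (squares), ATAH (triangles) and ATAS (diamonds) as a percent of the ATFB reads (log scale) of the same gene, for DLK1 and the 10 genes of most similar pattern in order of likeness; open triangles mark 0 reads, drawn at 3 reads. DLK1 lies at 0.345% in ATAH and 0.164% in ATAS with 0 reads in ATAB, and every point of the 10 genes lies below 3.32%.

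Markers of other tissues moved with DLK1 in part. The 3 measured red cell genes summed to 2404 RPKM in ATFB against 12.3 to 16.1 in the adults, nearly all of it HBG2. The 8 cartilage and bone genes summed to 43.3 RPKM against 1.95 to 12.6. In ATFB most of it was COL2A1 and COL11A1, at 19.3 and 21.8 RPKM. COMP of that list had 0.798 RPKM in ATFB against 2.42, 1.22 and 11.3, and was called lower against ATAB and ATAS. The 7 skin genes summed to 16.5 RPKM against 2.40 to 3.49, with KRT14 and KRT15 at 5.43 and 4.85 RPKM in ATFB. The part of red cells, cartilage or skin in the DLK1 level was not tested, and DLK1 at 566 RPKM stood above every gene of these lists in ATFB except HBG2. The 11 muscle genes summed to 32.1 RPKM in ATFB against 54.7 to 64.0, of which DES, also present in vessel walls, made 26.6, and MYOD1 had no ATFB read. The median log2 ratios of the muscle genes with a ratio were 1.16, 0.20 and 0.46. MYH8, a perinatal myosin, had 79 reads in ATFB against 10, 14 and 6 and was called higher in all 3 comparisons. MYH3, a further myosin, had 29 against 37, 86 and 87 and was called lower against ATAH and ATAS (log2 ratios -1.54 and -1.56). Both were singled out after their values were seen. The 4 adrenal and pituitary genes, from tissues known to express DLK1, summed to 2.85 RPKM in ATFB against 1.14 to 2.09. STAR, 83.1% of it shared with another sequence, was at 1.70. CHGA had 26 reads in ATFB against 0, 4 and 2 and was called higher in all 3 comparisons. STAR, CYP11A1 and PRL were called in none. Of the brown fat genes, UCP1 and DIO2 had no ATFB read, and the 5 measured summed to 34.0 RPKM against 53.0 to 171, most of it CIDEA (25.99 against 41.9 to 164), which is also in the adipocyte list. EBF2 and PPARGC1A were called in no comparison. The 6 nerve genes summed to 182 against 277 to 295, 6 endothelial genes to 478 against 417 to 782, and 10 leukocyte genes to 124 against 208 to 322. Against ATAB, ATAH and ATAS, the median log2 ratios of the nerve genes were 1.46, 1.14 and 0.47. Those of the endothelial genes were -0.21, -0.74 and -1.09, and those of the leukocyte genes -1.44, -1.40 and -2.11.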

How the data were processed

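Poly(A) RNA of 4 pools was sequenced as 1 library each. The authors removed adaptor, redundant and low-quality reads, aligned to the bosTau7 genome with SOAPaligner at 0 and then fewer than 3 mismatches, and deposited for each UniGene cluster the counts of uniquely matched reads, the coverage in percent and the RPKM. The deposited RPKM were the reads scaled to length and to the library total. The submitters' processing notes name CASAVA. Genes were named from accessions and descriptions in the deposited sequences through RefSeq (ARS-UCD2.0). For a symbol with several clusters, the one with most reads was taken. The gene DLK1, the gene lists and the tests were chosen with earlier results of these data known, so the planned tests of DLK1 between adult libraries are not given. Text names DLK1, all adipocyte, preadipocyte, DLK1 route, Notch ligand and receptor and locus genes, the 10 genes most like DLK1, and from the 6 most-read genes of other lists; others are marked. Some listed genes are counted with their list but not reported here by name. Where 1 of a pair of libraries had no read and the other more than 3, 3 reads stood for the 0. Binomial tests, Poisson and Clopper-Pearson intervals used SciPy 1.17.1, and the fits edgeR 4.0.16 (filterByExpr, TMM) on R 4.3.3, with DESeq2 1.42.0 as an alternative. Sequences were matched with BLAST+ 2.17.0. Alternatives were other scalings, minimum reads, summed clusters, other fits and leaving out each adult library.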

Additional observations from a re-analysis of the deposited data

How the results depend on the processing

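With 1 pooled library per group, depth limits the adult values: a count of 0 in ATAB allows 3 reads, and 19 and 40 reads set the other 2. No paired analysis was possible because each group had 1 library and the labels gave no replicate numbers. The median log2 ratio over all clusters shifted from 0.15, -0.08 and -0.09 (ATFB over ATAB, ATAH and ATAS) under library totals to -0.03, 0.02 and 0.03 under TMM and 0.38, 0.19 and 0.16 with ACTB as the scaling. The DLK1 level in ATFB was 581 RPKM with DESeq2 size factors, 646 with ACTB scaling and 1759 on the unshared length, a setting chosen after seeing the data that gave 5.95 in ATAH and 2.83 in ATAS. In ATFB more bases were covered than reads touching the unshared part could reach, so its value divides by too short a length. Summing reads over clusters that match DLK1 gave the same values, since the second sequence had no counts. The log2 bound of ATFB over ATAB was 12.2 with ACTB scaling and 13.6 with 0 read as 1 read. The DLK1 ratios over ATAH and ATAS stayed within their intervals, and the ratios among adults kept their direction, under TMM, DESeq2 size factors and ACTB. The adipocyte calls stayed at 17, 17 and 12 to 13 genes under the settings tried. In edgeR, 2146 clusters were higher and 2515 lower in ATFB, 3442 and 3966 by the likelihood ratio test, and leaving out an adult library gave 995 (without ATAH) to 3407 (without ATAB) higher, 1326 to 3716 lower and 7 to 14 adipocyte genes lower. Of the 10 genes most like DLK1, 6 remained with at least 20 ATFB reads. Of 300 other recomputed counts of list genes, 255 stayed within 1.5 times and 45 moved.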
